A study of Mus musculus with 6 samples.

Results

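The actin filament genes, the targets of serum response factor (SRF) and the Hippo pathway genes with the targets of YAP and TAZ were followed in NIH/3T3 cells depleted of aldolase A. They were chosen by name: 54 gene symbols were given, and the 51 that have a row in the deposited table of 18001 genes are described here. Myl12a, Srf and Myl9 were not analysed here. NIH/3T3 is an immortalized mouse fibroblast line, and both groups consist of this line alone. In the group siALDOA the cells received siRNAs against Aldoa, in the group siCTR they received non-targeting siRNAs, and in both the RNA was taken 48 h later. The study's list of reagents gives each as a pool of siRNAs. Each group holds 3 libraries of poly(A) RNA, numbered as replicates 1 to 3. No rescue by an siRNA-resistant Aldoa is part of these libraries.

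Actin exists in the cell as monomers and as filaments, and the balance between them is read by the genome. Monomeric actin binds the cofactors MRTF-A (encoded by Mkl1) and MRTF-B (Mkl2) and keeps them away from SRF, so that assembly of filaments, which the GTPase RhoA promotes, frees them to activate SRF targets such as Acta2 and Tagln. Filament tension also lets YAP (Yap1) and TAZ (Wwtr1) enter the nucleus and activate Ctgf, Cyr61 and Ankrd1 together with the TEAD factors, while the kinases LATS1 and LATS2 oppose this. Aldolase A, the glycolytic enzyme that splits fructose-1,6-bisphosphate, is also known to bind filamentous actin.

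The deposited values are CPM, the reads of a gene scaled to the effective size of its library, and the reads behind it could be recovered as whole numbers, with totals between 3692341 and 3771129 reads per library. At this depth 3 reads correspond to 0.786 to 0.822 CPM, so counting error limits precision for genes with few reads. Aldoa, the targeted gene, was at 522, 536 and 545 CPM in the siCTR libraries and at 62.9, 69.2 and 72.0 CPM in the siALDOA libraries, or 12.7% of the siCTR mean. Replicates 1 and 2 of each group were close to sampling noise, with a chi-square per degree of freedom of 1.12 in siCTR and 1.11 in siALDOA, against 1.97 to 3.03 for pairs of a group that include replicate 3. Spike-in RNA was added to replicate 1 at another step than to replicates 2 and 3 per the study's methods. The paper calls the 3 replicates biological, but the labels do not say whether they came from separate cultures. The p-values below therefore measure the spread between these libraries, which may partly be technical. The fibroblast label was checked against 10 markers, and 10 of 10 exceeded 10 CPM in every library. Their summed level was 13565 to 14120 CPM in siCTR and 11394 to 12031 CPM in siALDOA. The markers did not move together. Col1a1, Col1a2, Vim, Col3a1 and S100a4 were lower in every siALDOA library than in every siCTR library. Fn1, Pdgfrb, Thy1 and Prrx1 were higher in every one, and Twist1 overlapped. The 3 of 7 muscle markers with a row summed to 8.73 to 9.57 CPM in siCTR and 7.59 to 10.3 CPM in siALDOA, with the smooth muscle myosin Myh11 at no more than 0.822 CPM. The 3 of 4 epithelial markers summed to 6.57 to 10.4 CPM and 1.83 to 4.28 CPM, and the 2 of 3 endothelial markers to 3.70 to 4.66 CPM and 1.07 to 2.97 CPM. The 5 leukocyte markers summed to 17.5 to 25.2 CPM in siCTR and 25.6 to 28.5 CPM in siALDOA, carried by Cd14, while Ptprc, the defining marker, was at 0.547 to 3.01 CPM. The part of these marker levels in the changes below was not tested, and in bulk RNA fewer cells of a kind and less RNA per cell cannot be told apart.

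Genes of all these groups moved upon Aldoa knockdown, and they moved in both directions. With limma on log2(CPM + 1), two-sided, and a Benjamini-Hochberg adjusted p under 0.05 over all 18001 genes, 12 of the 51 members were lower in siALDOA, 16 were higher and 23 were not called. Over all genes 10% were called lower and 10.4% higher, or 20.4% in total, and the median member was more abundant than the median gene, at 201 CPM against 15.7 CPM averaged over the libraries. Among the 8271 genes with a mean of at least 20 CPM 36.5% were called, 19.1% lower and 17.5% higher, and of the 47 members at this level 12 were lower and 15 higher. The median log2 fold change of the 51 members was 0.0031, against -0.0023 for all genes. In 14 members all siALDOA libraries lay below all siCTR libraries and in 15 they lay above, where 17.1% and 16.7% of all genes do so. Of the 47 members with at least 20 CPM these were 14 and 14, where 26% and 24% of all genes at this level do so. At an unadjusted p under 0.05, 13 members were lower and 18 higher.

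**Figure D1:**
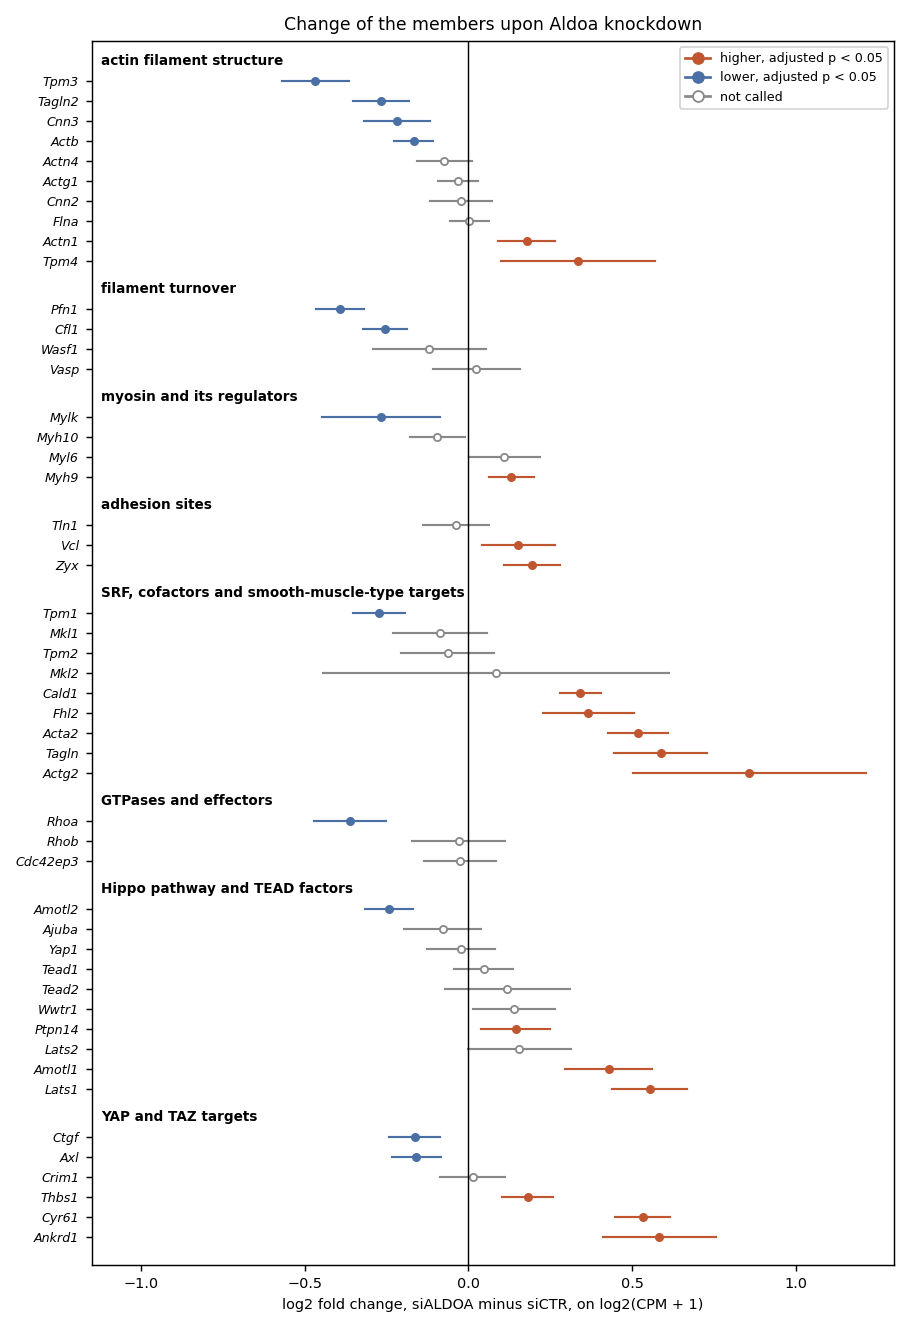
Log2 fold change (siALDOA minus siCTR, on log2(CPM + 1)) of 49 members with its 95% confidence interval from limma, grouped by role; Cnn1 and Fhl1 are left out because they had at most 7 reads in any library. Filled points passed an adjusted p of 0.05: 7 of the 21 structural members were lower and 5 higher, and the smooth-muscle-type genes Acta2, Tagln, Cald1 and Actg2 lie at the right.

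By arm the counts were as follows. Of the 21 structural members, which make up or bind filaments, motors and adhesion sites, 7 were lower, 5 higher and 9 not called, with a median log2 fold change of -0.039. Of the 11 SRF cofactors and targets 1 was lower and 5 were higher. For the 7 of them with a mean of at least 20 CPM these were 1 and 4, with a median of 0.34, and the others, near-absent genes among them, are described singly. The 16 members of the Hippo pathway with the YAP and TAZ targets had 3 lower and 6 higher, with a median of 0.13. The other members are Rhoa, Rhob and Cdc42ep3. These are counts of a chosen list, and the difference between the arms was not tested. They also depend on the assignment, since the SRF arm holds SRF cofactors and smooth-muscle-type targets only. Actg1, Cnn2, Myl6 and Vcl, whose promoters hold the SRF motif described below, were counted as structural. Of these Vcl was called higher and the others were not called. Actb, which was called lower, was also counted as structural, and without a promoter entry it could not be searched for the motif.

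**Figure D2:**
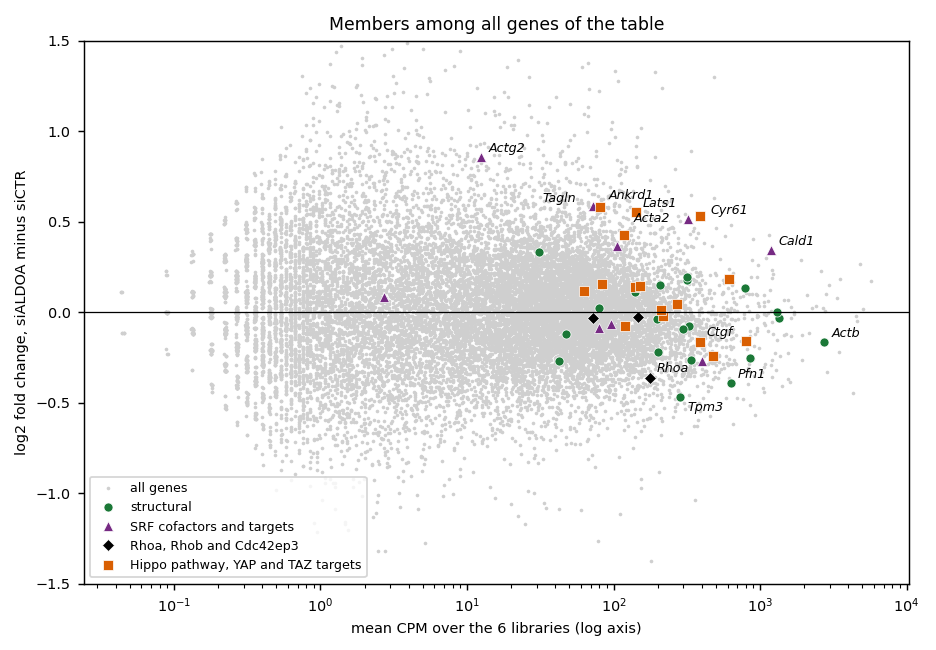
Log2 fold change (siALDOA minus siCTR) against the mean CPM over the 6 libraries, on a log axis, for all genes (grey) and for the members by arm (colored symbols); 30 genes beyond a log2 fold change of 1.5 in either direction, Aldoa among them, lie outside the axis. The members lie mostly at the right, and they fall on both sides of 0 within the cloud of all genes (Cnn1 and Fhl1, with at most 7 reads, are not colored).

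The cytoplasmic actin gene Actb and the smooth muscle actin genes moved in opposite directions. Actb (ENSMUSG00000029580, chr5:142903115-142906754, minus strand, GRCm38), which encodes cytoplasmic beta-actin, was at 2861, 3017 and 2798 CPM in siCTR and at 2576, 2522 and 2626 CPM in siALDOA. All siALDOA libraries lay below all siCTR libraries, at 89.0% of the siCTR mean (log2 fold change -0.17, SE 0.029, limma adjusted p = 0.00015). Acta2 (ENSMUSG00000035783, chr19:34241090-34255590, minus strand), smooth muscle alpha-actin and a marker of contractile fibroblasts, was at 254, 270.0 and 269 CPM in siCTR and at 375, 363 and 398 CPM in siALDOA. It rose to 143% of the siCTR mean without overlap (log2 fold change 0.52, SE 0.044, adjusted p = 6.3e-09). Actg2, smooth muscle gamma-actin, was at 6.85, 9.30 and 9.79 CPM in siCTR and at 15.4, 17.6 and 15.97 CPM in siALDOA. It was the member with the largest log2 fold change of the 51 (0.86, SE 0.17, adjusted p = 0.00072), at a low level. Actg1, cytoplasmic gamma-actin, was not called: its libraries lay at 1392, 1349 and 1358 CPM in siCTR and at 1334, 1308 and 1364 CPM in siALDOA, and the 95% interval of its log2 fold change ran from -0.094 to 0.028.

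These 4 genes share much of their coding sequence, which was read from GENCODE transcripts of GRCm38 and aligned from the stop codon. Over the whole coding sequence 88.6% of the bases of Actg1, 83.02% of Acta2 and 82.8% of Actg2 equal those of Actb, and 83.8% of the bases of Actg2 equal those of Acta2.

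Per kilobase of exon, Actb was the most abundant of the 4 actins in siCTR (1079 CPM per kb), followed by Actg1 (514), Acta2 (120.3) and Actg2 (5.55 CPM per kb). As a share of the 4 summed per kilobase, Acta2 made up 6.76%, 6.98% and 7.26% in the siCTR libraries and 10.4%, 10.3% and 10.7% in the siALDOA libraries. The share of Actb was 62.8% ± 0.99 (SD, n = 3) in siCTR and 58.4% ± 0.17 (SD, n = 3) in siALDOA, that of Actg1 29.9% ± 0.98 and 30.5% ± 0.053. Reads on the copies of Actg1 described below are left out of these shares. In siCTR Actg1 was at 1366 CPM alone and at 2368 CPM with its 6 copies. The shares of Acta2, Actg2 and Actb did not overlap between the groups (exact two-sided permutation test, p = 0.1 each, the smallest that 3 against 3 libraries can give).

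**Figure D3:**
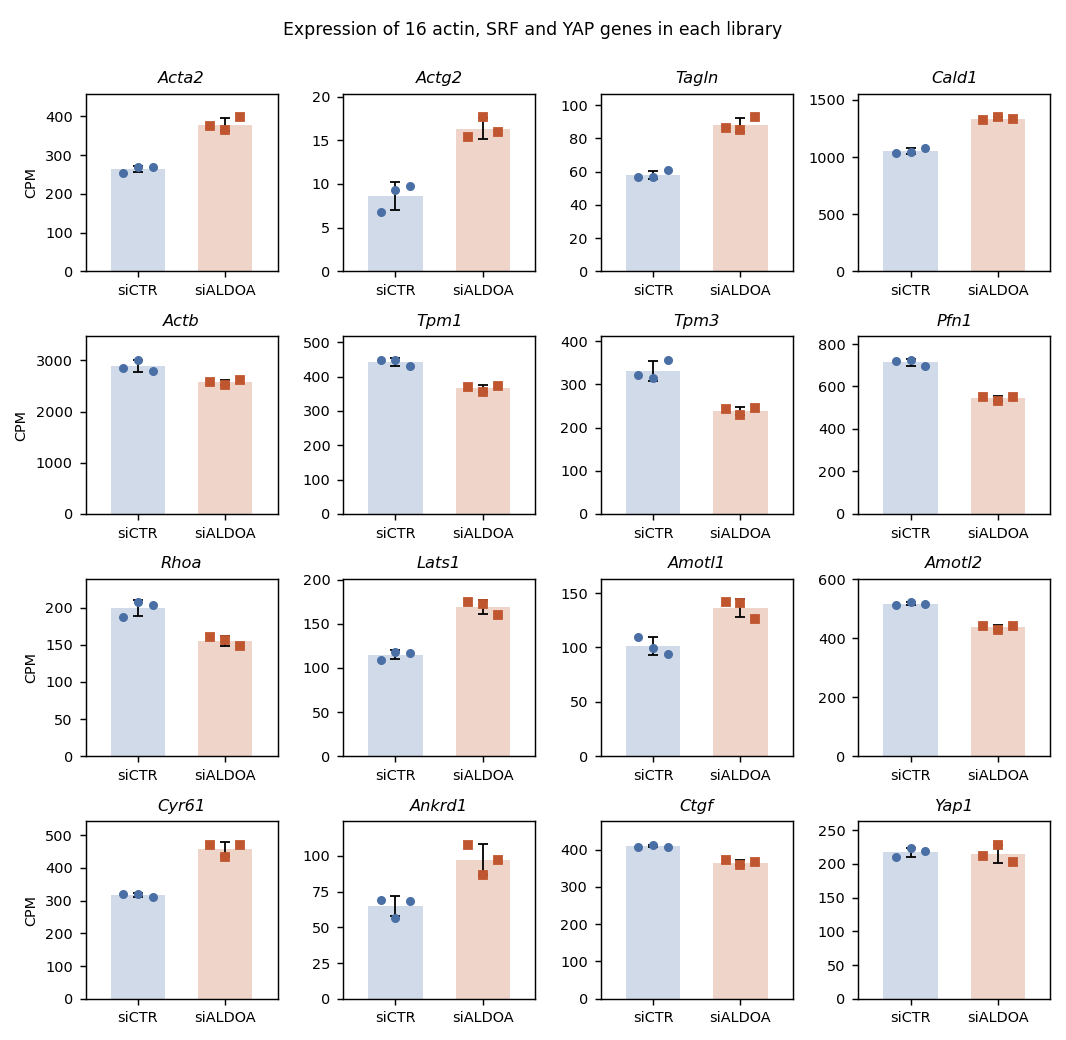
CPM of 16 members in each library (circles siCTR, squares siALDOA, replicates 1 to 3 from left to right), with bars for the mean of 3 libraries and error bars for the SD; every axis starts at 0. Acta2, Actg2, Tagln, Cald1, Lats1, Amotl1, Cyr61 and Ankrd1 were higher in all 3 siALDOA libraries, Actb, Tpm1, Tpm3, Pfn1, Rhoa, Amotl2 and Ctgf were lower in all 3, and Yap1 overlapped.

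Among the proteins that coat and cross-link filaments, the tropomyosins gave 2 lower genes and 1 higher gene of 4. Tropomyosins lie along the filament and set which partners can bind it. Tpm3, a cytoskeletal tropomyosin, was at 323, 314 and 358 CPM in siCTR and at 244, 229 and 246 CPM in siALDOA, with no overlap. It fell to 72.2% of the siCTR mean, the lowest share among the called members (log2 fold change -0.47, SE 0.049, adjusted p = 1.7e-07). Tpm1, which is also an SRF target, was at 448, 449 and 429 CPM in siCTR and at 371, 354 and 372 CPM in siALDOA (log2 fold change -0.27, SE 0.039, adjusted p = 1.3e-05). Tpm2 overlapped between the groups, at 107, 94.9 and 91.8 CPM against 86.9, 96.8 and 97.1 CPM. Tpm4 passed the test (log2 fold change 0.33, adjusted p = 0.038), although its siCTR libraries at 25.2, 32.0 and 24.9 CPM overlap with 38.1, 31.8 and 34.0 CPM in siALDOA. As shares of the 4 tropomyosins per kilobase, Tpm1 was at 40.4% ± 0.89 in siCTR and 39.3% ± 0.28 in siALDOA, Tpm3 at 32.3% ± 2.36 and 27.4% ± 0.49, and Tpm4 at 7.36% ± 1.11 and 10.9% ± 0.89 (SD, n = 3 each). The shares of Tpm3 and Tpm4 did not overlap between the groups, while those of Tpm1 and Tpm2 did. Reads on the near-identical copies of Tpm3 described below are left out of these shares. In siCTR Tpm3 was at 332 CPM alone and at 614 CPM with its 4 copies, so the shares do not rank Tpm3 against Tpm1.

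The other filament binders were mixed as well. Tagln2 and Cnn3, filament binders of the calponin family, were lower, with Tagln2 at 376, 352 and 378 CPM in siCTR and at 301, 313 and 305 CPM in siALDOA. Its log2 fold change was -0.27 (SE 0.041, adjusted p = 4e-05), and that of Cnn3 was -0.22 (SE 0.049, adjusted p = 0.002) with means of 216 ± 2.99 and 186 ± 9.72 CPM (SD, n = 3). Actn1, an alpha-actinin that cross-links filaments in stress fibers, rose from 300.5, 298 and 289.7 CPM to 321, 336 and 349 CPM (log2 fold change 0.18, SE 0.042, adjusted p = 0.0035). Its relative Actn4 was at 94.95% of siCTR and was not called (log2 fold change -0.075, adjusted p = 0.22), although its siALDOA libraries all lay below the siCTR libraries. Flna, which cross-links filaments into networks, was at 1298 ± 12.3 CPM in siCTR and 1301 ± 22.8 CPM in siALDOA. The 95% interval of its log2 fold change ran from -0.057 to 0.063. Cnn2 overlapped too, at 98.4% of siCTR.

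The genes of filament turnover fell or were not called. Pfn1 encodes profilin, which delivers monomers to growing filament ends. It was at 719.8, 727 and 695 CPM in siCTR and at 551, 529.7 and 549.9 CPM in siALDOA, that is at 76.2% of siCTR (log2 fold change -0.39, SE 0.035, adjusted p = 1.3e-08). Cfl1 encodes cofilin, which severs aging filaments. Its libraries lay at 917, 920.2 and 930.2 CPM in siCTR and at 772, 753 and 797 CPM in siALDOA (log2 fold change -0.25, SE 0.032, adjusted p = 3.1e-06). Neither gene overlapped between the groups. Vasp, which promotes elongation, was at 102% of siCTR with a 95% interval of -0.11 to 0.16 for the log2 fold change. Wasf1, a subunit of the WAVE complex that activates Arp2/3, was at 92.1% of siCTR with an interval of -0.29 to 0.05.

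Non-muscle myosin II pulls on these filaments. Its heavy chain Myh9 was at 770.5, 767 and 735 CPM in siCTR and at 833, 814 and 843 CPM in siALDOA (log2 fold change 0.13, SE 0.033, adjusted p = 0.0055). The other heavy chain Myh10 lay lower in every siALDOA library, at 93.6% of siCTR, and the light chain Myl6 lay higher in every one, at 108%, but neither was called (adjusted p = 0.11 and 0.16). Mylk, the kinase that phosphorylates the regulatory light chain, was at 44.9, 47.6 and 45.8 CPM in siCTR and at 41.0, 35.8 and 37.7 CPM in siALDOA (log2 fold change -0.27, SE 0.087, adjusted p = 0.031). At adhesion sites Zyx, encoding the stress fiber protein zyxin, rose from 307, 288 and 291 CPM to 345, 336 and 332 CPM (log2 fold change 0.19, SE 0.041, adjusted p = 0.0013). Vcl, which encodes vinculin, was called with overlapping groups, 196, 213 and 185 CPM against 207, 226 and 227 CPM (log2 fold change 0.15, adjusted p = 0.048). Tln1, the integrin activator talin, was at 97.3% of siCTR and overlapped.

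Of the members counted in the SRF arm Acta2, Actg2, Tagln, Cald1 and Fhl2 rose and Tpm1 fell. The transcripts of the MRTF cofactors did not pass the test. Tagln encodes transgelin (SM22-alpha), a filament binder of contractile cells. Its libraries lay at 56.7, 56.9 and 60.9 CPM in siCTR and at 86.1, 84.7 and 92.7 CPM in siALDOA (log2 fold change 0.59, SE 0.069, adjusted p = 9.1e-07). Cald1, caldesmon, which restrains myosin on the filament, was at 1035, 1046 and 1079 CPM in siCTR and at 1321, 1349 and 1335 CPM in siALDOA (log2 fold change 0.34, SE 0.030, adjusted p = 1.1e-08). Fhl2, a LIM-domain coregulator of SRF, was at 101, 88.1 and 88.9 CPM in siCTR and at 127, 109.8 and 123 CPM in siALDOA (log2 fold change 0.37, SE 0.067, adjusted p = 0.00029). Together with Acta2 and Actg2 above, these were the 5 called higher of 11 SRF members, and in each of them every siALDOA library lay above every siCTR library. Tpm1 was the 1 of these 11 called lower. Mkl1 was at 75.6, 81.8 and 88.4 CPM against 77.2, 74.0 and 79.9 CPM, with a 95% interval of -0.23 to 0.06 for its log2 fold change. Mkl2 had 8 to 13 reads in every library, 2.12 to 3.47 CPM, and its interval of -0.44 to 0.61 leaves changes of either sign undetectable at this depth. Cnn1, calponin of smooth muscle, was near absent, with 1 read in each of 5 libraries and 0 reads in siALDOA replicate 1, which allows up to 0.810 CPM there. Fhl1 had between 1 and 7 reads per library, and no fold is given for these 2 genes.

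Rhoa fell, while its relative Rhob and the effector gene Cdc42ep3 did not pass the test. Rhoa encodes the GTPase RhoA and was at 187, 207 and 204 CPM in siCTR and at 161, 156 and 148 CPM in siALDOA, or 77.7% of siCTR with no overlap (log2 fold change -0.36, SE 0.052, adjusted p = 1.6e-05). Rhob, its growth-factor-inducible relative, was at 72.9 ± 3.98 CPM in siCTR and 71.3 ± 1.48 CPM in siALDOA (SD, n = 3). Cdc42ep3, an effector of CDC42, was at 148 ± 7.03 and 145 ± 3.50 CPM. The 95% intervals of their log2 fold changes ran from -0.17 to 0.11 and from -0.13 to 0.08.

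In the Hippo pathway the kinase gene Lats1 rose while the coactivators did not pass the test. Yap1 was at 210.1, 223 and 219.9 CPM in siCTR and at 211, 229 and 203 CPM in siALDOA, with a 95% interval of -0.13 to 0.08 for the log2 fold change. Wwtr1 was at 123, 142 and 133 CPM against 136, 154 and 149 CPM (log2 fold change 0.14, adjusted p = 0.12). Tead1 and Tead2, the DNA-binding partners, overlapped between the groups at 103% and 109% of siCTR. Lats1 was at 109, 118 and 117 CPM in siCTR and at 175, 173 and 160.2 CPM in siALDOA, with no overlap (log2 fold change 0.55, SE 0.055, adjusted p = 8.5e-08). Its relative Lats2, itself a known YAP target, was at 88.5, 75.2 and 73.5 CPM against 80.2, 94.1 and 90.1 CPM and was not called (log2 fold change 0.16, adjusted p = 0.17). Leaving out replicate 1 of both groups, the siCTR library of which was the highest of its group, gave an adjusted p of 0.042 for Lats2 with a log2 fold change of 0.30.

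The angiomotin-like genes, whose proteins hold YAP at junctions and filaments, moved in opposite directions. Amotl1 was at 109.8, 99.8 and 93.7 CPM in siCTR and at 142, 141 and 126 CPM in siALDOA (log2 fold change 0.43, SE 0.065, adjusted p = 2.8e-05). Amotl2, which is also a YAP target, was at 515, 523 and 516 CPM in siCTR and at 441, 429.8 and 444 CPM in siALDOA (log2 fold change -0.24, SE 0.036, adjusted p = 2e-05). Neither pair of groups overlapped. Ptpn14, a phosphatase that binds YAP, was at 143 ± 5.62 CPM in siCTR and 158 ± 0.747 CPM in siALDOA (log2 fold change 0.14, adjusted p = 0.048). Ajuba, a LIM protein that inhibits LATS kinases, was at 94.7% of siCTR and was not called.

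The 6 members classed as YAP and TAZ targets gave 3 higher genes, 2 lower genes and 1 that was not called. This count depends on the assignment, since Amotl2 (lower) and Lats2 (not called), named above as YAP targets, were counted with the Hippo pathway. Cyr61 (Ccn1; ENSMUSG00000028195, chr3:145646976-145649981, minus strand), a secreted matricellular protein, was at 321, 319 and 312 CPM in siCTR and at 472, 435 and 471 CPM in siALDOA. It rose to 145% of siCTR (log2 fold change 0.53, SE 0.041, adjusted p = 1.4e-09). Ctgf (Ccn2; ENSMUSG00000019997, chr10:24595442-24598683, plus strand), the closest family member among the targets, was at 406, 414 and 408 CPM in siCTR and at 372, 359 and 366 CPM in siALDOA. It fell to 89.2% of siCTR (log2 fold change -0.16, SE 0.038, adjusted p = 0.0025). Both genes were free of overlap between the groups, in opposite directions. Per kilobase of exon Cyr61 stood at 157 CPM per kb in siCTR and 227 CPM per kb in siALDOA, and Ctgf at 143 and 128 CPM per kb. Ankrd1, a nuclear ankyrin repeat protein and widely used YAP reporter gene, was at 69.0, 56.6 and 68.3 CPM in siCTR and at 108, 86.6 and 97.4 CPM in siALDOA (log2 fold change 0.58, SE 0.083, adjusted p = 1.3e-05). Thbs1, the matrix protein thrombospondin, rose from 568, 609 and 549.8 CPM to 650.4, 647 and 659 CPM (log2 fold change 0.18, SE 0.038, adjusted p = 0.0011). Axl, a receptor tyrosine kinase, fell from 842, 882 and 801 CPM to 746, 745 and 769 CPM (log2 fold change -0.16, SE 0.036, adjusted p = 0.0022). Crim1, a transmembrane protein that binds BMPs, overlapped at 101% of siCTR.

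The promoters of these genes were read for the letters of both pathways, since TEAD factors bind GGAATG and SRF binds the CArG box. Both strands were searched, and on the other strand the TEAD motif reads CATTCC. The CArG box was searched as CCWWWWWWGG, with W for A or T, so forms with any other base were not counted. The 250 bases before the RefSeq transcript start (GRCm38.p6) are shown for 3 members that rose, for Amotl2 that fell and for Vcl, which holds both motifs. Each runs from 5′ to 3′ on the strand of the gene, and capitals mark a TEAD motif or a CArG box.
Cyr61, chr3:145649986-145650235, minus strand: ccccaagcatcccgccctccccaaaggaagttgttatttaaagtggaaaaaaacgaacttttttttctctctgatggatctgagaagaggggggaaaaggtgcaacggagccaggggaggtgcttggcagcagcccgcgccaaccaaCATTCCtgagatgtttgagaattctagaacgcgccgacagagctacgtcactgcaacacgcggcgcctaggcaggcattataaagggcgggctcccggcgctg
Ankrd1, chr19:36119845-36120094, minus strand: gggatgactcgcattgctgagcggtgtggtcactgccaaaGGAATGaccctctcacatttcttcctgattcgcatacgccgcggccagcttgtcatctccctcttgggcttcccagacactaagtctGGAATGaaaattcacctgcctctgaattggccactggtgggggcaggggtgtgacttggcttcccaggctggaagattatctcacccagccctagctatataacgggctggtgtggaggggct
Acta2, chr19:34255374-34255623, minus strand: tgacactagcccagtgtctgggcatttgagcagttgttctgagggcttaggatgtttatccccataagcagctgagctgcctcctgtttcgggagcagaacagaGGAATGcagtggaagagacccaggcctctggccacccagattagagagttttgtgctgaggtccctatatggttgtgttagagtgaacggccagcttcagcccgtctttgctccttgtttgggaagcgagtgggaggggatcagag
Amotl2, chr9:102717554-102717803, plus strand: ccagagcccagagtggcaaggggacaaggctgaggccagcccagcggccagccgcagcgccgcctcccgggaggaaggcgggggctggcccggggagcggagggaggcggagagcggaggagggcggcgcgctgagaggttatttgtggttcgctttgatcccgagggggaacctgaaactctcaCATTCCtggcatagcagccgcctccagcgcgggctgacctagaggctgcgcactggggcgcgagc
Vcl, chr14:20929148-20929397, plus strand: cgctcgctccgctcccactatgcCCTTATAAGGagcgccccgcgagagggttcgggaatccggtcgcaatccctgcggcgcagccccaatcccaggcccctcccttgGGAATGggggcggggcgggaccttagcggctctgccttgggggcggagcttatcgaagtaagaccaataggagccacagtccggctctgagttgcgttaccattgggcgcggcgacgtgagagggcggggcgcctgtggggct
The TEAD motif of Cyr61 begins 103 bases before the start and that of Amotl2 65 bases before it, and Ankrd1 has 2, at 210 and 123 bases. Vcl holds the TEAD motif 143 bases and the CArG box 227 bases before the start. By this search Vcl was the only member with both motifs, and there they do not overlap. The Acta2 window also holds ccctatatgg and ccttgtttgg, which differ from the CArG pattern by a single base each and were not counted.

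Of the 45 members with a promoter entry, 21 (46.7%) held the TEAD motif and 6 (13.3%) the CArG box, against 13.2% and 1.47% of the 11198 genes of the expression table with such an entry, and 12.6% and 1.47% of all 32851 promoters in the reference table. The list was put together partly from known SRF and YAP targets, so these shares are not independent of how it was chosen. By outcome, the TEAD motif stood in 6 of 10 members that were lower, 6 of 13 that were higher and 9 of 22 that were not called. The CArG box, in the strict form searched, stood in 0, 2 and 4 of them. Thus genes with the TEAD motif were found among those that rose, fell and were not called. A match describes the letters of this window, and Actb, Actg2, Tagln, Tead1, Ctgf and Thbs1 have no promoter entry.

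Within a library, ratios between paired members do not depend on the scaling of that library. For 8 pairs, which were chosen after their values were seen, the log2 ratio of CPM, not corrected for length, was computed per library. Cyr61 over Ctgf was -0.34, -0.37 and -0.39 in siCTR and 0.34, 0.28 and 0.37 in siALDOA. Acta2 over Actb was -3.49, -3.48 and -3.38 in siCTR and -2.78, -2.79 and -2.72 in siALDOA. Every ratio of the 8 was higher in all siALDOA libraries, which their choice fixes for pairs of a higher and a lower gene. For Lats1 over Lats2, where both lay higher in the mean, it went from 0.54 ± 0.21 to 0.94 ± 0.16 (SD, n = 3).

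Several members share sequence with pseudogenes or relatives, among which reads could be split, since the handling of reads with several matches is not given in the sources used here. Of the 51 members 7 had another gene of the table with at least 90% identity over 200 bases or more: Actb, Actg1, Tpm3, Actn4, Cfl1, Myl6 and Rhoa. Tpm3-rs7, 99.1% identical to Tpm3 over 2108 bases, was at 278 ± 7.87 CPM in siCTR and 200.1 ± 0.798 CPM in siALDOA (SD, n = 3), and it fell by a log2 fold change near that of Tpm3 (-0.47). Summed with its 4 copies, Tpm3 was at 72.3% of siCTR. Cfl1 summed with its 2 copies was at 83.5%, and Rhoa with its 2 copies at 80.1%, each with no overlap between the groups. Actg1 with 6 copies, among them Gm12715 (99.6% identity, 842 CPM in siCTR and 847 CPM in siALDOA), was at 98.7% with overlap. Myl6 with 4 copies was at 104.7%, with every siALDOA library higher. For Actb the longest match was to a stretch of 1074 bases of Lrrc58 at 91.1% identity, a gene that was higher in siALDOA (log2 fold change 0.44, adjusted p = 6.1e-06).

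**Figure D4:**
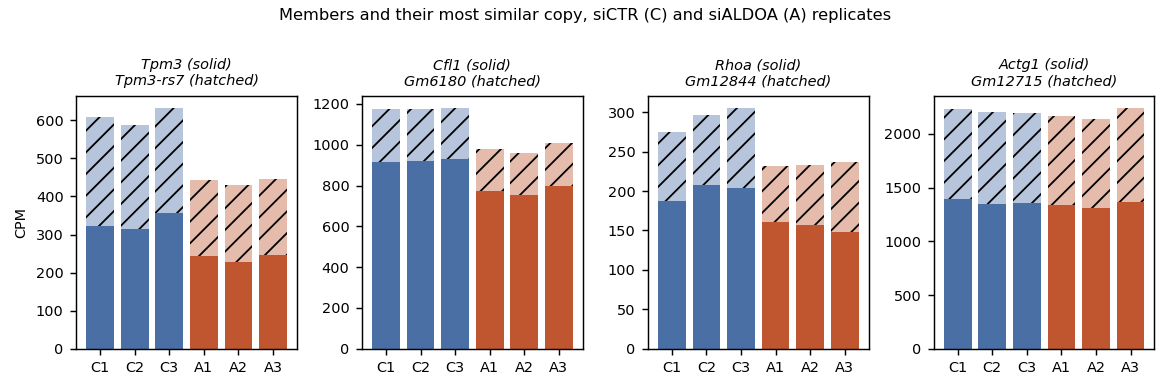
CPM of 4 members (solid) with their most similar copy stacked on top (hatched) in siCTR replicates 1 to 3 (C1 to C3) and siALDOA replicates 1 to 3 (A1 to A3), each axis from 0. For Tpm3, Cfl1 and Rhoa the stacks of all siALDOA libraries are lower than those of all siCTR libraries, and for Actg1 with Gm12715 they overlap.

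The rest of the pathways moved in both directions as well. Of 175 further genes on 10 lists, 166 were in the table, and 29 of them were lower and 37 higher, against 20.4% called over all genes. Of the 140 with a mean of at least 20 CPM 44.3% were called, against 36.5% of all genes at this level. By list this share was 35.3% for 17 Arp2/3 genes, 38.5% for 26 filament assembly genes and 62.5% for 16 cross-linkers. It was 40% for 10 myosins, 21.4% for 14 integrin and focal adhesion genes and 42.1% for 19 Hippo genes. For 9 YAP targets it was 55.6%, and for 6 SRF targets and 3 immediate early genes 66.7% each. The lists were not tested against the share of all genes. The Arp2/3 complex and its activators, which nucleate branched filaments, had 5 lower and 1 higher gene of 17. The lowest were Arpc1b (log2 fold change -0.39, adjusted p = 8e-07), Abi2 (-0.33, 0.0031) and Cyfip1 (-0.23, 0.0097), and Abi1 was higher (0.24, 0.0039). The lower calls of Arpc1a and Arpc4 lay near the threshold (limma adjusted p = 0.047 and 0.0497). In 9 fits with libraries left out they were kept in 0 and 1. The calls of Cyfip1, Abi1, Abi2 and Arpc1b were kept in 3, 5, 6 and 9 of these fits. Other genes of filament assembly, severing and capping had 4 lower and 6 higher of 27, with the second profilin Pfn2 at -0.54 and muscle cofilin Cfl2 at -0.23, and with the cofilin partner Wdr1 at 0.41 and the severing factor Dstn at 0.38. Coro1c, a coronin that binds filaments, was also lower, at -0.34, and Ssh1, the phosphatase that activates cofilin, was higher, at 0.36.

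Cross-linkers and other filament binders were split evenly, 6 lower and 6 higher of 18. Flnc, a filamin, was at 481, 469 and 442 CPM in siCTR and at 311, 311 and 328 CPM in siALDOA (log2 fold change -0.55), followed by Pdlim1 (-0.37) and the bundling protein Fscn1 (-0.27). The plastin Lcp1 had the largest log2 fold change on these lists (1.21), from 7.94, 12.04 and 11.6 CPM to 24.6, 23.0 and 29.1 CPM, and it is known as a leukocyte plastin. The stress fiber protein Palld rose by 0.80 on the log2 scale, and Lima1 by 0.66. Other myosins had 2 lower and 2 higher of 13, with Myo1c (-0.33) and Myo1e (-0.25) lower and Myo1d (0.71) and Myo10 (0.23) higher. Integrins and focal adhesion genes had 0 lower and 3 higher of 19, namely Bcar1 (0.34), Tln2 (0.32) and Itgb1 (0.12).

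Other SRF and MRTF targets had 2 lower and 3 higher of 12. Csrp2 (-0.46) and Mical2 (-0.29) were lower, and Synpo2 (0.69), Csrp1 (0.26) and Smtn (0.24) were higher. Genes known from smooth muscle stood on both sides, Csrp2 among the lower and Smtn among the higher. Of the 8 immediate early genes that SRF drives with TCF cofactors, Ier2 (-0.47) and Egr3 were lower and Junb (0.50) was higher. Egr3 was called at 1.64, 1.09 and 1.06 CPM in siCTR against 0.540, 0 and 0.262 CPM in siALDOA, which is at most a few reads per library. Other Hippo pathway genes had 1 lower and 7 higher of 20. Tead4 was lower (-0.34), and the highest were Wwc2 (0.53), which encodes a relative of the LATS-binding protein KIBRA, Vgll3 (0.44), a TEAD cofactor, and the kinase Taok2 (0.44). Other YAP and TAZ targets had 2 lower and 3 higher of 12, with Nuak2 (-0.66) and Ccdc80 (-0.28) lower and Foxf2 (1.01), F3 (0.48) and Myof (0.21) higher. Thus the lists of YAP targets, like the 6 members, held genes that moved either way.

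The calls differed in how far they rested on single settings. All 28 called members kept their direction in all 19 alternatives, and 7 of them were called in every one: Acta2, Tagln, Cald1, Lats1, Cyr61, Tpm3 and Pfn1. On recovered reads all 28 passed the quasi-likelihood test of edgeR, and 24 passed DESeq2. Without the mean-variance trend 11 were called. With replicate 1, 2 or 3 left out of both groups, which leaves 2 against 2 libraries, 19, 16 and 13 were called. Leaving out replicate 3 ended the calls of Rhoa (adjusted p = 0.063), Tagln2 (0.057), Ankrd1 (0.087) and Fhl2 (0.16), and leaving out replicate 2 ended that of Amotl1 (0.065). Single libraries decided the call of 4 members. The calls of Tpm4, Mylk, Vcl and Ptpn14 were made in 8, 6, 8 and 5 of the 19 alternatives. With 1 or 2 libraries left out the adjusted p of Tpm4 ranged from 0.016 to 0.41, and leaving out any single library except siCTR replicate 2 ended its call. For Mylk the range was 0.03 to 0.25, with the call kept only without siALDOA replicate 1, and for Ptpn14 it was 0.053 to 0.21, with the call lost without any of the 6 libraries. For Vcl it was 0.024 to 0.52, with the call lost without replicate 1 or 3 of siCTR or replicate 2 or 3 of siALDOA. The calls of Actb, Axl, Ctgf, Zyx, Actn1, Thbs1, Actg2, Cnn3 and Myh9 ended under at least 2 of the 19 settings, and with a replicate number left out of both groups their highest adjusted p lay between 0.070 (Actg2) and 0.15 (Axl).

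**Figure D5:**
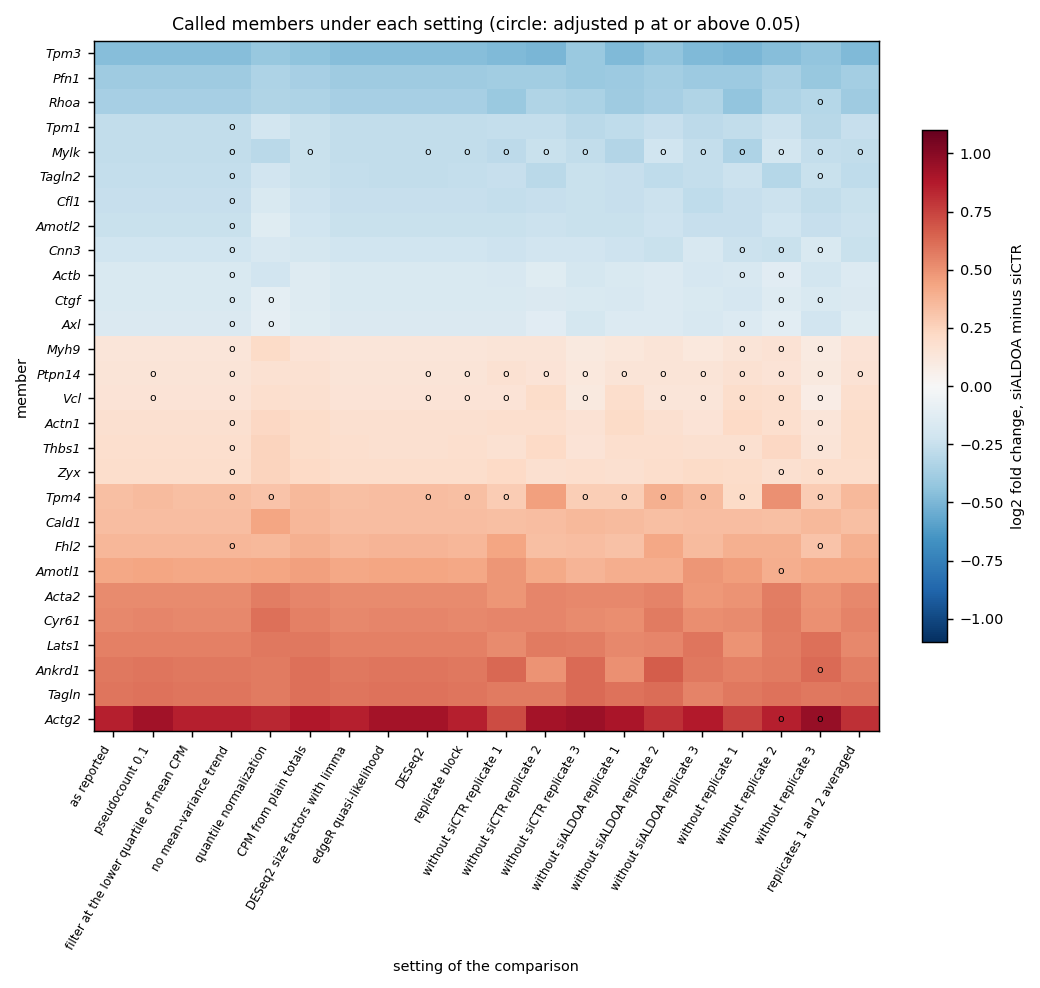
Log2 fold change (siALDOA minus siCTR, color) of the 28 called members under the reported setting and 19 alternatives, with a circle where the adjusted p was at or above 0.05. The color keeps its side of 0 in every row, and the rows of Tpm3, Pfn1, Cald1, Acta2, Cyr61, Lats1 and Tagln hold no circle.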

How the data were processed

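RNA-Seq of NIH/3T3 cells, 3 siCTR and 3 siALDOA libraries, was analyzed. The authors isolated poly(A) RNA, mapped the reads to mm10 with Bowtie2 (version 2.2.7), drew the same number of reads from each sample, counted reads within genes and deposited CPM of an effective library size. The annotation, the use of strand and the handling of multiply mapping reads are not given in the sources used here, and Bowtie2 does not align across splice junctions. A second deposited table with the authors' fold changes and p-values was not used. Reads were recovered from the smallest non-zero CPM of each library, and 100% of values were whole within 1e-06.

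Groups, taken from the sample labels, were compared with limma (version 3.58.1, R 4.3.3) using log2(CPM + 1), a mean-variance trend, no filter and Benjamini-Hochberg adjustment over 18001 genes. This scale understates changes of genes with few reads. edgeR (4.0.16) and DESeq2 (1.42.0) on recovered reads, other scalings, a pseudocount of 0.1, a filter, averaged replicates and left-out libraries were alternatives. Copies were searched with blastn (2.17.0) on GENCODE transcripts of GRCm38, which also gave exon lengths and gene positions. Promoters are RefSeq's.

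The members, gene lists and tests were chosen with earlier results of these data known. Named were all called members, fixed regulators and actins, and the 3 lowest and 3 highest called genes of each further list, 1 of which is not reported here; other members were added so that each is accounted for, and the 8 ratios and the summed copies were chosen after the values were seen. Genes under 12 reads over all libraries, a minimum given in the study's methods, still number 1834 in the table.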

Additional observations from a re-analysis of the deposited data

How the results depend on the processing

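The count of members called lower (12) and higher (16) was 3 and 8 without the mean-variance trend, and that of the other pathway genes (29 lower, 37 higher) was 8 and 12. With libraries left out, the counts ran from 7 to 12 and from 6 to 15 for the members and from 10 to 26 and from 14 to 34 for the other genes, lowest where 2 libraries remained per group. The log2 fold change of Aldoa ran from -3.00 to -2.90 and was called in all 19 alternatives. Under the other settings these counts stayed within 1.5 times the reported ones. Over all genes the count called went from 3676 to 1440 (8%) without the trend, to 2183 of the 11717 genes that DESeq2 gave an adjusted p (18.6%), and to between 1014 and 2813 with libraries left out. Of members that were not called, quantile normalization turned the sign of Actg1 (0.052), Tln1 (0.0022), Cdc42ep3 (0.0022) and Yap1 (0.010), and CPM from plain totals that of Cnn2 (0.00015). With libraries left out the log2 fold change crossed 0 for Cnn2 (-0.065 to 0.014), Flna (-0.018 to 0.019), Mkl2 (-0.032 to 0.19), Tpm2 (-0.14 to 0.054), Rhob (-0.052 to 0.014), Cdc42ep3 (-0.065 to 0.033), Yap1 (-0.071 to 0.023), Tead2 (-0.033 to 0.23) and Crim1 (-0.028 to 0.053). The cause was not tested. None of these turned a call.

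The groups share replicate numbers. After subtracting the group means, libraries with the same number correlated by 0.040, 0.040 and 0.21 across 8271 genes, and the numbers were not taken as pairs. siCTR replicate 2 correlated more with siALDOA replicate 1 (0.12) than with its own number. The value of 0.21, for replicate 3, was the highest between any siCTR and any siALDOA library. Whether replicate 3 of both groups shares a batch was not tested. A fit with the replicate block called 11 members lower and 13 higher, and 24 of the 28 called members remained. Averaging replicates 1 and 2 of each group left 26 of the 28. Other scalings moved the median log2 fold change of all genes to 0.016 at most. Depth limits Mkl2, Cnn1 and Fhl1, which had at most 13 reads in any library.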
